A study of Mus musculus with 10 samples.

Results

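The genes described here are 9 regulators of the Nrf2 pathway: Nfe2l2, which encodes Nrf2, Keap1, Cul3, and Sqstm1, which act on the stability of Nrf2, Nfe2l1, which encodes the related factor Nrf1, the small Maf genes Mafg, Maff, and Mafk, and Bach1. They were chosen by name, with earlier results of these data known. All 9 were found among the 21939 genes of the table and had at least the 10 summed counts that the test required. RNA of freshly isolated hepatocytes from 10 male mice was sequenced 12 days after AAV8Cre had been given to every mouse. AAV8Cre is an adeno-associated virus that expresses Cre recombinase from the thyroxine-binding globulin promoter of hepatocytes. The mice are described as 8 to 9 weeks old, without an explicit statement of whether at injection or at sampling. For other mice of the study, the authors give a higher age 12 days after the knockout was induced. The age of 8 to 9 weeks is thus probably that at injection. The 3 control mice were wild-type C57BL/6J, the 2 Nrf2 KO mice carried floxed Nrf2 alleles, the 2 p65 KO mice carried floxed alleles of p65, the NF-κB subunit encoded by Rela, and the 3 double knockout (DKO) mice carried both. There was 1 library per mouse, so p-values measure the spread between mice. Cells other than hepatocytes keep their floxed alleles in this model, and hepatocytes were purified by low-speed centrifugation and Percoll.

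Nrf2 is a transcription factor of the cap'n'collar family that induces genes for glutathione synthesis, detoxification, and redox control. Keap1 is the adaptor through which the cullin Cul3 ubiquitinates Nrf2, and p62, the product of Sqstm1, binds Keap1 and delivers it to autophagy. Nrf2 binds DNA together with a small Maf protein at the antioxidant response element, where Bach1 with a small Maf protein acts as a repressor that heme removes.

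The core of the antioxidant response element, TGACNNNGC, was searched on both strands upstream of the annotated start of each gene (GRCm39, canonical transcript of GENCODE M39). Within 250 bases it was found in 9.69% of 21770 promoters and in 3 of the 9 genes, Mafg, Sqstm1, and Cul3. Within 1000 bases it was found in 28.2% of the promoters and in 4 of the 9 genes, Nfe2l2 being added. The matches are shown because these are the letters that Nrf2 and Bach1 dimers read, with the core in capitals and all sequences 5′ to 3′ on the strand of the gene, which is the minus strand in each case. A match in the reverse orientation is printed as its complement.
Nfe2l2, chr2:75535223-75535263, core 262 bases upstream: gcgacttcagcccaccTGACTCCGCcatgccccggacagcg
Mafg, chr11:120524571-120524611, core 221 bases upstream, reverse: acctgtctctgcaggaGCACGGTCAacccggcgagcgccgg
Sqstm1, chr11:50103347-50103387, core 486 bases upstream: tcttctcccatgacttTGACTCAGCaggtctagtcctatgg
Sqstm1, chr11:50102986-50103026, core 125 bases upstream: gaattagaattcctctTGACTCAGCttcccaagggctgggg
Cul3, chr1:80318637-80318677, core 124 bases upstream: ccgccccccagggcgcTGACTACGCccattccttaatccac
A further Sqstm1 match lay 883 bases upstream, in an exon of a longer Sqstm1 transcript, and the 2 Sqstm1 windows printed lie in introns of longer Sqstm1 transcripts. The Sqstm1 cores also hold TGACTCA, the motif of AP-1 factors. The Nfe2l2, Mafg, and Cul3 windows overlap exons of long noncoding RNAs annotated on the opposite strand, and that of Nfe2l2 also an exon of Gm75256 on the same strand. A match is a description of these letters and not evidence of binding.

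Values are normalized counts, that is, deposited estimated counts divided by the relative library size after TMM scaling. Genotypes were fitted together by the quasi-likelihood method of edgeR, p-values of 13641 genes were adjusted after Benjamini and Hochberg, and a gene was called at an adjusted p of at most 0.05. Of the 9 regulators, 1 was called in Nrf2 KO against control (Nfe2l2 higher), where 0.726% of all genes were called. In p65 KO against control 2 were called (Bach1 higher and Sqstm1 lower), with a background of 14.9%, and in DKO against control 1 was called (Nfe2l2 higher), with a background of 5.45%. These comparisons share the control libraries. Between DKO and p65 KO 3 were called (Nfe2l2 higher, Bach1 and Maff lower), with a background of 4.11%. Between DKO and Nrf2 KO edgeR called 0 of 9, with a background of 0.513%, with 1 at an unadjusted p under 0.05 and 0 with DESeq2. The interaction compares the effect of losing Nrf2 with and without p65, as DKO over p65 KO against Nrf2 KO over control. In it edgeR called 0, with a background of 0.469% and with 2 at an unadjusted p under 0.05. DESeq2 called 2, among 400 genes that it called in all.

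**Figure D1:**
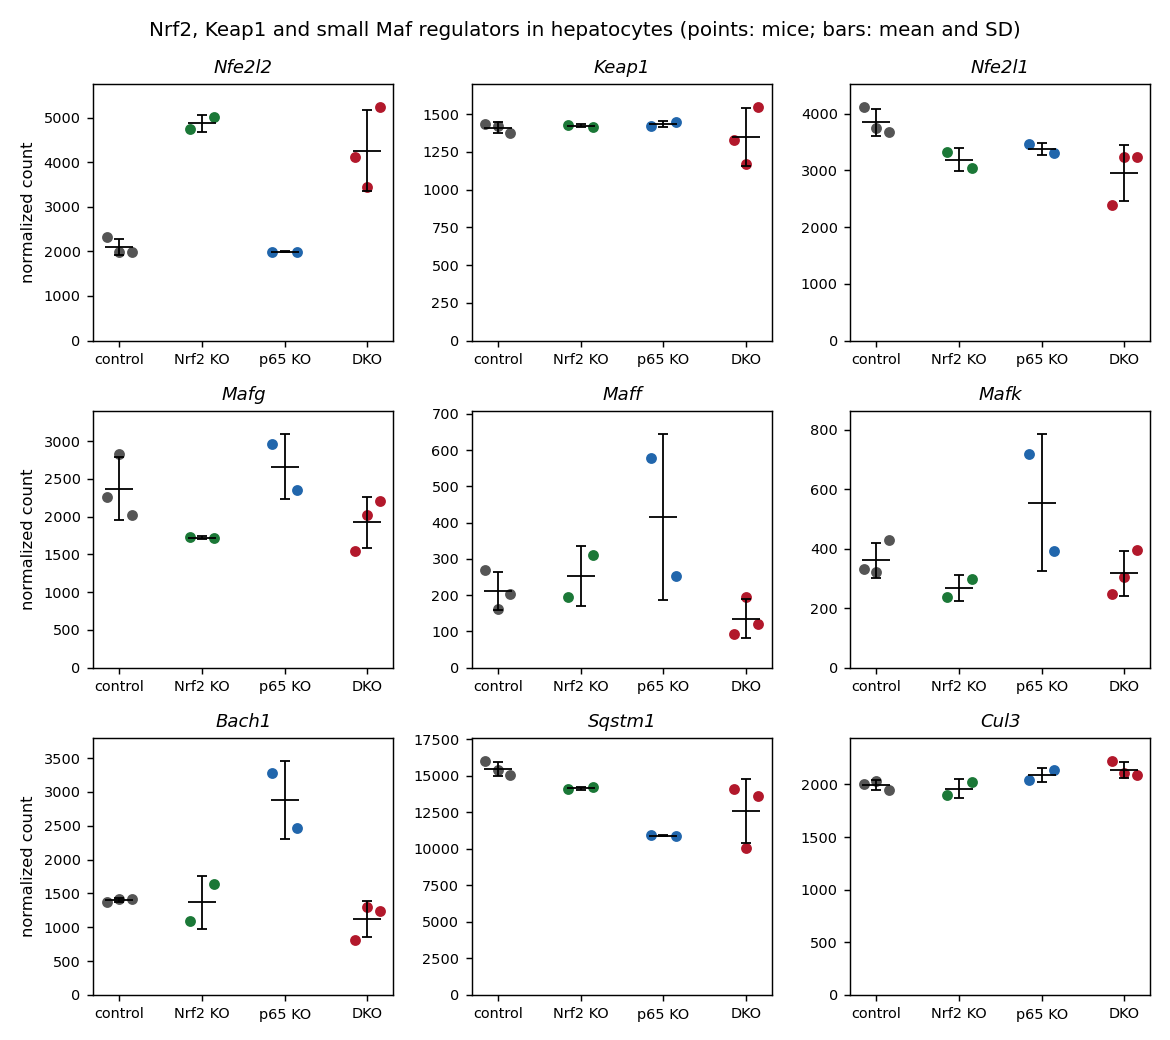
Normalized counts (y axis, from 0) of the 9 regulators in the 4 genotypes (x axis), with 1 point per mouse and bars for the mean and SD. Nfe2l2 was at or above 3434 in all libraries with floxed Nrf2 and at or below 2318 in the others, and Bach1 was highest in the 2 p65 KO libraries.

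Nfe2l2 (ENSMUSG00000015839, chromosome 2 from 75504739 to 75534985) is the gene targeted in Nrf2 KO and DKO. It had 2318, 1991, and 1990.2 normalized counts in the control libraries, 4739 and 5005 in Nrf2 KO, 1993 and 1997 in p65 KO, and 4111, 3434, and 5239.5 in DKO. All 5 libraries with floxed Nrf2 thus lay above all 5 others, and the total of the targeted gene was higher, not lower, where it was labelled as deleted. Against control, the log2 fold change was 1.21 in Nrf2 KO (edgeR, adjusted p = 0.00488, SE 0.156), a 2.32-fold difference, and 1.02 in DKO (edgeR, adjusted p = 0.00347, SE 0.143). Between DKO and p65 KO it was 1.09 (edgeR, adjusted p = 0.00903, SE 0.164). In p65 KO it was -0.07, with a 95% interval from -0.42 to 0.28. The interaction was -0.12, with an interval from -0.61 to 0.37.

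The table holds 1 total per gene, so transcripts with and without the deleted part cannot be separated, and genotypes are named as labelled. The call in Nrf2 KO was lost without Nrf2 KO replicate 2, where the log2 fold change was 1.17. That fit keeps 1 Nrf2 KO library and takes its spread from the other genotypes. It also called fewer of all genes than the main fit did. The call in DKO against p65 KO was lost without p65 KO replicate 1 or 2 (adjusted p = 0.0691 and 0.068 from edgeR) and with only the genotypes compared in the fit (adjusted p = 0.052 from edgeR), while the log2 fold change was at least 1.09 in these fits. Rela, the gene for p65, did not show its deletion in the total either, with 1221, 1276, and 1269 normalized counts in control against 1183 and 1209 in p65 KO and 1488, 1241, and 1034 in DKO. For Rela it was, as a log2 fold change, -0.07 in p65 KO (adjusted p = 0.765 from edgeR). The authors report, from RT-qPCR and Western blots, that both targeted genes were efficiently knocked out in hepatocytes and not in nonparenchymal cells. A total per gene cannot test this, because it does not separate the deleted part. Of the 31-base words of Nfe2l2 transcripts, 2.31% also occur in transcripts of other genes.

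Keap1 (chromosome 9 from 21141026 to 21150679) encodes the substrate adaptor that holds Nrf2 for degradation. Its normalized count was 1438, 1424, and 1374 in control, 1429.6 and 1417 in Nrf2 KO, 1419 and 1451 in p65 KO, and 1326, 1167, and 1548 in DKO. Every genotype overlapped with control, and only the DKO mice spread widely. Its log2 fold change was 0.01 in Nrf2 KO (95% interval from -0.25 to 0.28), 0.02 in p65 KO (from -0.24 to 0.29), and -0.07 in DKO (from -0.31 to 0.17), so that the data bound a change of Keap1 mRNA to less than that seen for Nfe2l2.

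Cul3 (chromosome 1 from 80242639 to 80318537), the scaffold of the ligase, had 2004, 2032, and 1947 normalized counts in control and 1897 and 2025 in Nrf2 KO. In p65 KO it had 2041 and 2134, and in DKO 2219.6, 2104, and 2087. The p65 KO and DKO libraries lay above the control libraries by a small margin, with log2 fold changes of 0.07 (95% interval from -0.14 to 0.27) and 0.10 (from -0.08 to 0.28) that did not pass the test (adjusted p = 0.667 and 0.513 from edgeR).

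Sqstm1 (chromosome 11 from 50089572 to 50107684), which encodes the autophagy receptor p62, had 15994, 15365, and 15049 normalized counts in control and 14079 and 14232 in Nrf2 KO. It had 10931 and 10874 in p65 KO and 14114, 10071, and 13613 in DKO. All libraries of the 3 knockout genotypes lay below all control libraries. Against control the difference in log2 was -0.50 in p65 KO (edgeR, adjusted p = 0.0397, SE 0.144), and this call was close to the threshold. With scaling to equal totals it was -0.33 (adjusted p = 0.121 from edgeR, with a range from 0.00756 to 0.178 over the alternatives). Leaving out any 1 of the control, Nrf2 KO, or p65 KO libraries also ended the call, with an adjusted p between 0.06 and 0.178. In Nrf2 KO and DKO the values were -0.13 and -0.30 (adjusted p = 0.865 and 0.199 from edgeR). Of the 31-base words of Sqstm1 transcripts, 2.56% also occur in other genes.

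Nfe2l1 (chromosome 11 from 96705767 to 96720813) encodes Nrf1, a cap'n'collar factor of the endoplasmic reticulum that is known for the control of proteasome genes. Its normalized count was 4120.2, 3746, and 3682 in control, 3334 and 3043 in Nrf2 KO, 3459 and 3309 in p65 KO, and 2387, 3242, and 3242 in DKO. Each knockout library lay below each control library, yet none of the differences passed the test. Fold changes on the log2 scale were -0.27 in Nrf2 KO (adjusted p = 0.615), -0.19 with deleted p65 alone (adjusted p = 0.392), and -0.38 in DKO (edgeR, adjusted p = 0.104, SE 0.125), all with edgeR.

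**Figure D2:**
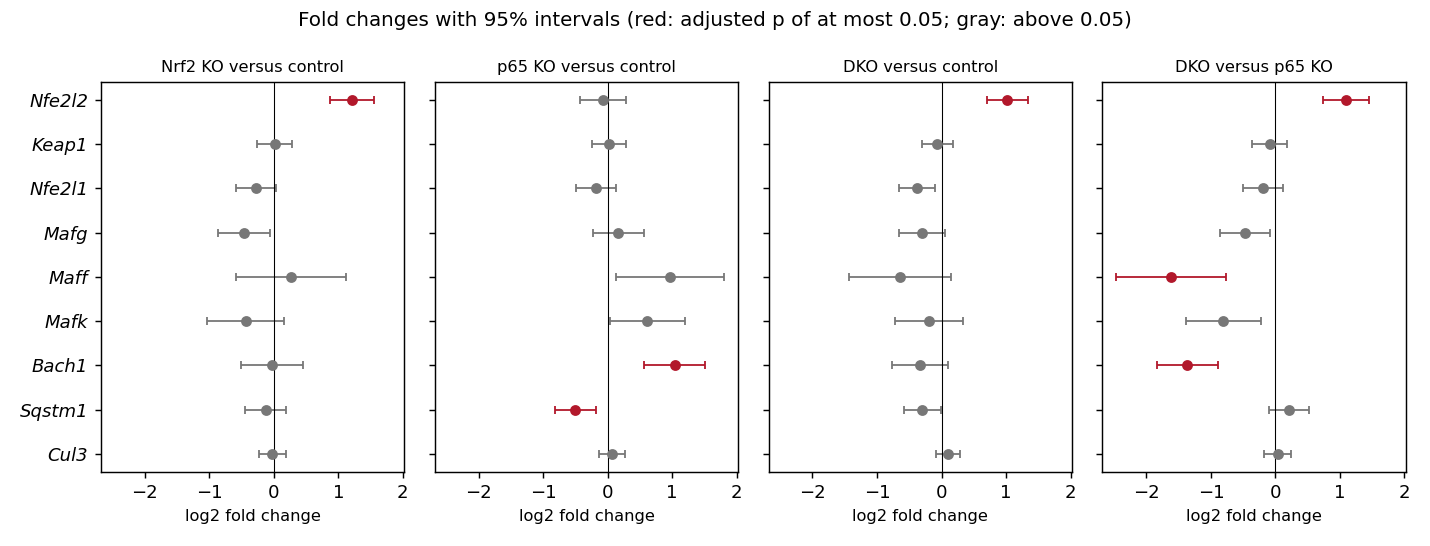
Log2 fold changes (x axis) of the 9 regulators (y axis) in 4 comparisons from edgeR, with 95% intervals as bars. Red points had an adjusted p of at most 0.05, which held for Nfe2l2 in 3 of these comparisons, for Bach1 in 2, and for Sqstm1 and Maff in 1 each.

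Bach1 (ENSMUSG00000025612, chromosome 16 from 87495782 to 87530234) encodes the repressor that competes with Nrf2 for the same elements. Its normalized count was 1370.4, 1412, and 1419 in control, 1091 and 1646 in Nrf2 KO, 3284 and 2469 in p65 KO, and 813, 1299, and 1238 in DKO. Both p65 KO libraries lay above all 8 others, and all DKO libraries lay below all control libraries. The log2 fold change was 1.04 in p65 KO against control (edgeR, adjusted p = 0.0123, SE 0.215), a 2.05-fold difference, and -1.37 in DKO against p65 KO (edgeR, adjusted p = 0.0102, SE 0.216). In DKO against control it was -0.33 (adjusted p = 0.351), and in Nrf2 KO -0.03 with a 95% interval from -0.52 to 0.45. The interaction of -1.33 (standard error 0.306) had an adjusted p of 0.0983 with edgeR, with a range from 0.00447 to 0.367 over the alternatives, the lowest being that of DESeq2.

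Without p65 KO replicate 1, the log2 fold change of Bach1 was 0.82 in p65 KO against control (adjusted p = 0.117, with a range from 0.000185 to 0.117 over the alternatives) and -1.15 in DKO against p65 KO (adjusted p = 0.0832, with a range from 8.62e-07 to 0.0832), from edgeR, and neither was called. That fit has 1 p65 KO library, whose spread is taken from the other genotypes, and over all genes it called 452 in p65 KO in place of 2032 and 85 in DKO against p65 KO in place of 561. Replicate 2, with 2469 normalized counts of Bach1, was itself higher than each of the 8 libraries of control, Nrf2 KO, and DKO. Markers of Kupffer cells, the resident macrophages of the liver, moved with Bach1 in p65 KO. The summed normalized count of 10 Kupffer cell markers was between 347 and 904 in control, between 243 and 765 in Nrf2 KO, between 4313 and 5841 in p65 KO, and between 1574 and 2779 in DKO, with no marker at 0 in a genotype. All 10 were called higher in p65 KO, where 14.9% of all genes were called, and 5 of 10 in DKO, where 5.45% were. In DKO the marker sum was above that of control and below that of p65 KO. Bach1 was not called there against control (log2 fold change -0.33, adjusted p = 0.351 from edgeR). All 8 sinusoidal endothelial markers were called higher in p65 KO as well, where their sum was between 3034 and 4313 against 616 to 1328 in control. Of 6 stellate cell markers 4 were called higher, and the sum over the list was between 1539 and 1562 in p65 KO against 142 to 335 in control. The part of these cells in the Bach1 difference was not tested, and in bulk RNA fewer cells of a type and less RNA per cell cannot be told apart. Markers of hepatocytes were abundant in every library, with a sum over 8 genes between 3242902 and 5209784.

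**Figure D3:**
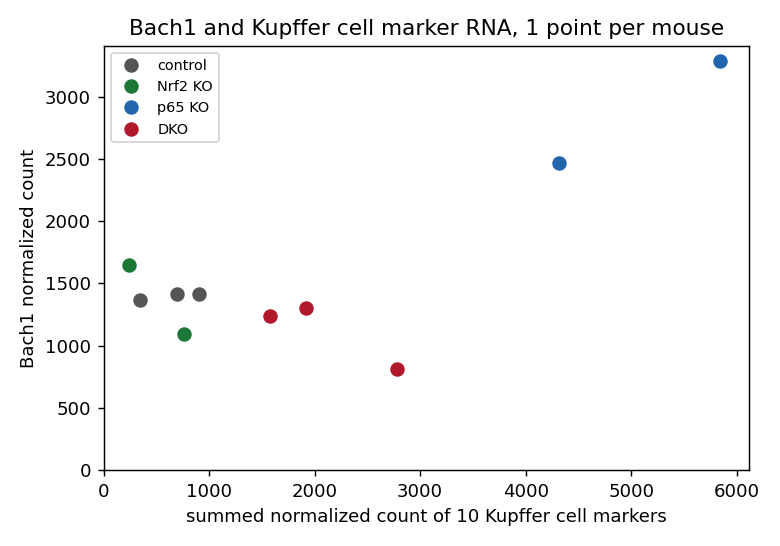
Bach1 normalized count (y axis) against the summed normalized count of 10 Kupffer cell markers (x axis), with 1 point per mouse. The p65 KO libraries are high on both axes. The DKO libraries have marker sums between those of control and p65 KO, and edgeR did not call their Bach1 difference from control.

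The small Maf proteins lack an activation domain and pair with both Nrf2 and Bach1. Mafg (chromosome 11 from 120515942 to 120524530) had 2258, 2834, and 2024 normalized counts in control, 1734 and 1713 in Nrf2 KO, 2966 and 2357 in p65 KO, and 1544, 2021, and 2204 in DKO. The Nrf2 KO libraries lay below control, and the DKO libraries overlapped with it. For Mafg it was, on the log2 scale, -0.46 in Nrf2 KO (adjusted p = 0.444), -0.30 in DKO (adjusted p = 0.293), and -0.47 in DKO against p65 KO (adjusted p = 0.155), none of which was called by edgeR. An exon of Mafg overlaps Sirt7 on the same strand, and 1.02% of the 31-base words of Mafg transcripts occur in Sirt7.

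Maff (chromosome 15 from 79230821 to 79243276), the small Maf gene that is known to respond to stress and cytokines, had 268, 163, and 205 normalized counts in control, 195 and 311 in Nrf2 KO, 577 and 253 in p65 KO, and 92.6, 194, and 120.1 in DKO. The 2 p65 KO mice differed by more than the 3 control mice did. In DKO against p65 KO the log2 fold change was -1.61 (edgeR, adjusted p = 0.044, SE 0.387), and without p65 KO replicate 1 it was -0.90 (adjusted p = 0.343, with a range from 0.00194 to 0.343 over the alternatives). The call was also lost with the replicate block (adjusted p = 0.117 from edgeR) and with only the genotypes compared in the fit (adjusted p = 0.109 from edgeR). The call was kept only without DKO replicate 2 or p65 KO replicate 2 among the fits that left out a library. Against control it was 0.97 in p65 KO (adjusted p = 0.109) and -0.64 in DKO (adjusted p = 0.314), and the interaction was -1.87 (adjusted p = 0.184), from edgeR.

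Mafk (chromosome 5 from 139776804 to 139788408) had 332, 324, and 429 normalized counts in control, 236 and 298 in Nrf2 KO, 718 and 392 in p65 KO, and 249, 305, and 397 in DKO. As with Maff, the value of p65 KO replicate 1 stood above the other libraries. That library also had the highest Kupffer cell marker sum, 5841, and the part of these cells in Maff and Mafk was not tested. The log2 fold change of Mafk was 0.62 in p65 KO (adjusted p = 0.134) and -0.81 in DKO against p65 KO (adjusted p = 0.112), and edgeR called neither. DESeq2 called the latter (-0.82, adjusted p = 0.048). Scaling to equal totals shifted every gene by -0.27 in log2 in DKO against p65 KO, and with it Mafk (-1.08, adjusted p = 0.0245) and Mafg (-0.74, adjusted p = 0.0376) were called there. Without p65 KO replicate 2, the differences of Maff and Mafk from control in p65 KO were called (adjusted p = 0.0458 and 0.0424).

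To compare the small Maf genes with each other, counts were divided by the length of the exons, giving a length-scaled level in normalized counts per kilobase and 1000000 counts. The summed level of the 3 genes was 10.6, 11.5, and 9.82 in control, 7.97 and 9.14 in Nrf2 KO, 17.1 and 11.1 in p65 KO, and 6.62, 9.16, and 9.54 in DKO. All 5 libraries with floxed Nrf2 lay below the 5 others, with a mean difference in log2 level of -0.48, which is a description. The difference by p65 status was 0.07. Mafg made up between 53.0% and 75.4% of the sum.

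**Figure D4:**
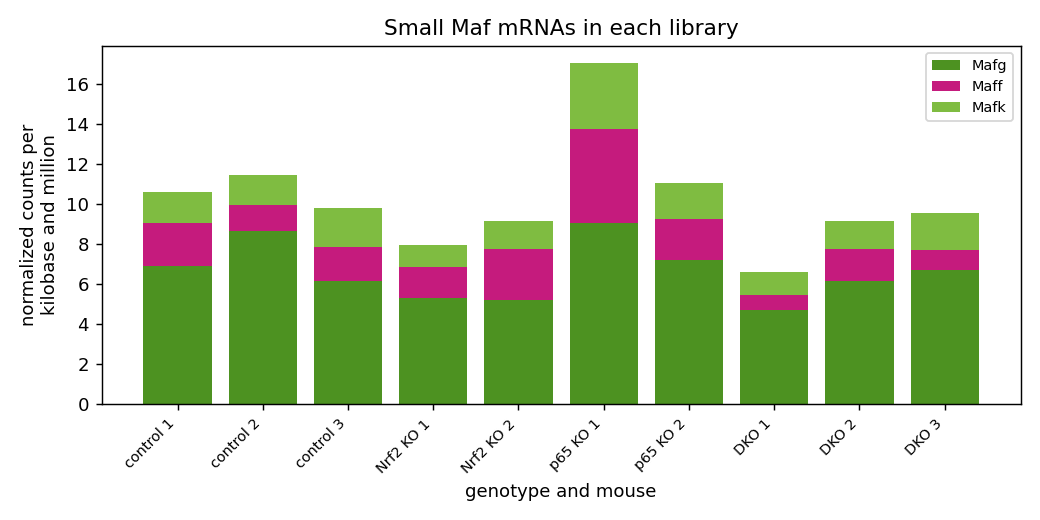
Levels of Mafg, Maff, and Mafk as length-scaled levels (y axis, stacked) in each library (x axis). The sum was highest in p65 KO replicate 1, at 17.1, and lowest in DKO replicate 1, at 6.62.

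Length-scaled levels were then compared between the 9 genes. The length was that of all annotated exons of a gene together. It was 8203 bases for Sqstm1, whose longest transcript has 3940, and 8508 for Mafg, whose longest has 8280. The order of the genes, the ratios below, and the share of Mafg above depend on this choice. None of them was computed with another length. In control, the order was Sqstm1 with 49.0 ± 1.52 (SD, n = 3), Nfe2l1 with 12.6 ± 0.778, Nfe2l2 with 9.98 ± 0.898, Cul3 with 9.30 ± 0.201, Mafg with 7.24 ± 1.27, Keap1 with 6.44 ± 0.154, Bach1 with 4.997 ± 0.0933, Maff with 1.73 ± 0.432, and Mafk with 1.67 ± 0.269. The libraries of the neighbors Nfe2l2 and Cul3, Mafg and Keap1, and Maff and Mafk overlapped in this order. In Nrf2 KO, Nfe2l2 had a level of 23.2 ± 0.896 (SD, n = 2) and lay above Nfe2l1 with 10.5 ± 0.674. In p65 KO, Bach1 had a level of 10.3 ± 2.06 (SD, n = 2), which overlapped with that of Nfe2l2 at 9.49 ± 0.0130.

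The ratio of the Nfe2l2 to the Bach1 level within a library was between 1.87 and 2.25 in control. It was between 0.808 and 1.08 in p65 KO, below all control libraries. In Nrf2 KO it was between 4.05 and 5.78 and in DKO between 3.52 and 6.73, above all control libraries, with Nfe2l2 counted as the total of a targeted gene. The ratio of Nfe2l2 to Keap1 lay between 1.43 and 1.68 in control and p65 KO and between 3.07 and 3.68 in Nrf2 KO and DKO.

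Besides these regulators, 48 genes of the pathway were examined in 7 lists. In Nrf2 KO against control edgeR called 0 of them, with 3 at an unadjusted p under 0.05 and 1 with DESeq2. In p65 KO 8 were called, 5 higher and 3 lower, with a median log2 fold change of -0.14 over the 48 genes and of 0.00 over all genes. These are 16.7% of the list, near the 14.9% called over all genes, and so no result about the list. Of the partners that bind Keap1 or Nrf2, Trim21, a ubiquitin ligase that binds p62, had 166, 163, and 139 normalized counts in control and 263 and 297 in p65 KO (log2 fold change 0.84, adjusted p = 0.00867 from edgeR). Cdkn1a, which encodes the cell cycle inhibitor p21, fell by 1.78 on the log2 scale (adjusted p = 0.0435). Skp1, a subunit of the β-TrCP ligase, and Nae1, which activates Nedd8 for cullins, had log2 fold changes of -0.51 and -0.43 (adjusted p = 0.0261 and 0.0363 from edgeR). Syvn1, the ligase Hrd1 that degrades Nrf1, and the coregulators Ep300 and Rxra had log2 fold changes of 0.75, 0.46, and 0.49, where the adjusted p lay between 0.04 and 0.0492. Syvn1 had 2184, 2537, and 2320 normalized counts in control and 5268 and 2642 in p65 KO, so its difference came mainly from p65 KO replicate 1.

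Ulk1, the kinase that starts autophagy and phosphorylates p62, had 3168, 3594, and 3861 normalized counts in control, 5444 and 5807 in Nrf2 KO, 6177 and 4580.2 in p65 KO, and 7836.8, 7074, and 6228 in DKO. Every knockout library lay above every control library. Its log2 fold change was 0.60 in p65 KO (adjusted p = 0.0245) and 0.99 in DKO (adjusted p = 0.00327), both from edgeR. In Nrf2 KO edgeR did not call Ulk1, although its mean there was 5626, against 5379 in p65 KO and 3541 in control. Ulk1 was the 1 gene of the 48 called in DKO against control, which is 2.08% of the list against 5.45% of all genes. DESeq2 called 4. Counts from DESeq2 outside the interaction, and counts at an unadjusted p under 0.05, are given in this text without a share over all genes. They are no result about a list. Trim21 was the 1 gene called in DKO against p65 KO, with a log2 fold change of -0.73 (adjusted p = 0.0347 from edgeR). This is 2.08% of the list against 4.11% of all genes, so neither count is a result about the list. Between DKO and Nrf2 KO edgeR called 0, with 3 at an unadjusted p under 0.05 and 2 with DESeq2, and in the interaction 0, with 5 at an unadjusted p under 0.05 and 0 with DESeq2.

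Bach2, the relative of Bach1, had 285, 463, and 332 normalized counts in control, 182 and 178 in Nrf2 KO, 145 and 290.2 in p65 KO, and 178, 202, and 84.7 in DKO. Only p65 KO overlapped with control. The log2 fold change in DKO was -1.22 (edgeR, adjusted p = 0.0589, SE 0.332), which edgeR did not call and DESeq2 did (-1.21, adjusted p = 0.0064).

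A further list held 10 genes that Nrf2 is known to induce. Against control, 4 of them were called lower in Nrf2 KO, where 0.726% of all genes were called, 4 lower and 1 higher in p65 KO, where 14.9% were, and 8 lower in DKO, where 5.45% were. The medians of their log2 fold changes were -0.86, -0.29, and -1.13, or -0.99, -0.37, and -1.34 without Slc7a11, a gene near 0 counts, against 0.00, 0.00, and 0.02 over all genes. Gstm1, a glutathione S-transferase of a family between whose members reads can be divided, had 110478, 116086, and 95273 normalized counts in control and 16029.8 and 11566 in Nrf2 KO (log2 fold change -2.96, adjusted p = 0.000219 from edgeR). Srxn1, which encodes sulfiredoxin, and Txnrd1, a thioredoxin reductase, had log2 fold changes of -1.32 and -0.73 in Nrf2 KO (adjusted p = 0.00597 and 0.0469 from edgeR). In DKO the lowest p-values were those of Gstm1 (-3.27), Gclc (-2.20), Srxn1 (-1.34), and Gsr, the glutathione reductase gene (-0.91). In p65 KO the genes called lower included Gclc (-1.33), Srxn1 (-0.77), and Gsr (-0.59).

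Gclc, the catalytic subunit of glutamate cysteine ligase, which makes the precursor of glutathione, had 27771, 22722, and 18703 normalized counts in control, 10523 and 9409 in Nrf2 KO, 10823 and 7563 in p65 KO, and 5111, 5326, and 4599.9 in DKO. The DKO libraries lay below all others. It was the 1 target called in DKO against Nrf2 KO, where 0.513% of all genes were called. The log2 fold change of Gclc there was -0.99 (adjusted p = 0.046 from edgeR). Of the targets, 6 were called lower in DKO against p65 KO, where 4.11% of all genes were called, among them Gstm1 (-2.56) and Nqo1, a quinone reductase (-1.42), and edgeR called 0 in the interaction, with 2 at an unadjusted p under 0.05 and 0 with DESeq2.

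Hmox1, the heme oxygenase whose gene Bach1 is known to repress, had 216, 181, and 219 normalized counts in control, 176 and 175 in Nrf2 KO, 679.7 and 438 in p65 KO, and 262, 212, and 248 in DKO. It was the 1 target called higher in p65 KO, with a log2 fold change of 1.44 (edgeR, adjusted p = 0.00198, SE 0.192), and it was lower in DKO than in p65 KO, with -1.21 (adjusted p = 0.0102 from edgeR). Hmox1 and Bach1 were thus both highest in the libraries with the most Kupffer cell marker RNA, and the part of these cells was not tested.

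**Figure D5:**
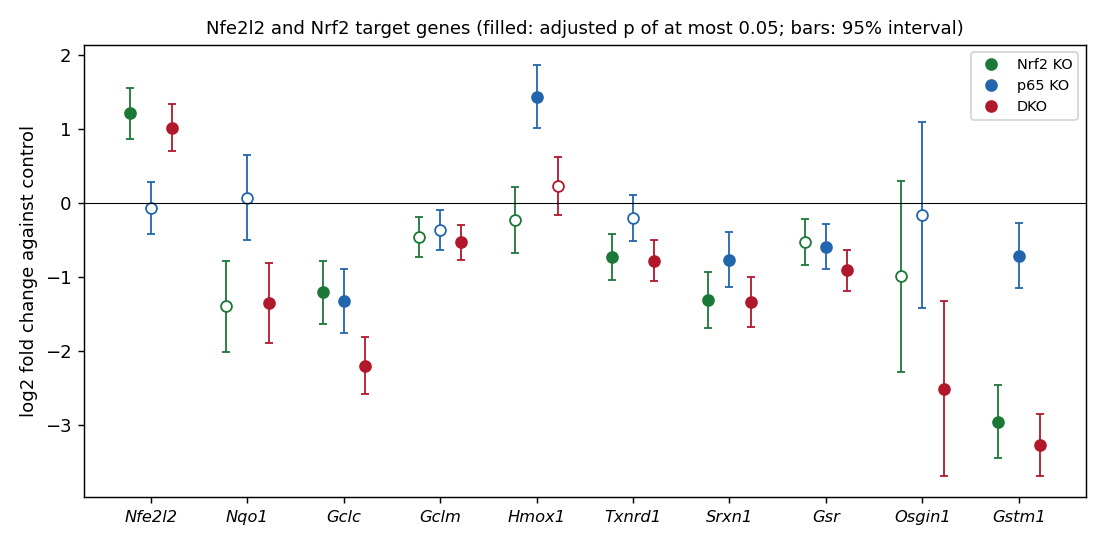
Log2 fold changes against control (y axis) of Nfe2l2 and 9 of the 10 Nrf2 target genes (x axis) in the 3 knockout genotypes, with 95% intervals from edgeR. Filled points had an adjusted p of at most 0.05, and Slc7a11, with at most 1.87 normalized counts in control, is not drawn because its control libraries were at or under the floor of 3 counts.

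The genes whose log2 normalized counts followed Nfe2l2 most closely were found by Pearson correlation over the 10 libraries among 10181 genes that averaged 50 or more normalized counts. They were Car3 (r = 0.959), Ghdc (0.918), Rps6kc1 (0.917), Abca3 (0.917), and Tpst1 (0.916). The libraries fall into 2 clusters by Nrf2 status, so these values mainly describe the difference between them. Car3, which encodes a carbonic anhydrase, had means of 66618 normalized counts in control and 67573 in p65 KO, against 148460.0 in Nrf2 KO and 114064 in DKO.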

How the data were processed

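The authors quantified the reads of TruSeq stranded mRNA libraries with Salmon 1.10.3 against GRCm39 and GENCODE M33, and the deposited values are whole-number estimated counts, 1 for each gene and mouse. The step from transcripts to genes is not given in the sources used here. Although the table is named as normalized, its totals (33707165 to 49897382) and median-of-ratios size factors (0.879 to 1.26) differed between libraries, and the values were used as counts without normalization. No library was a copy of another, since mice of the same genotype differed beyond counting noise. Gene names came from GENCODE M39 (21926 of 21939 identifiers). The main test was that of edgeR 4.0.16 under R 4.3.3 (TMM, at least 10 summed counts), and DESeq2 1.42.0, other scalings, no filter, a fold threshold, fits with a replicate block or with just the genotypes in question, and omission of every library in turn were alternatives. The test was tested on simulated data. Figures were drawn with matplotlib 3.10.9.

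The 9 genes and the lists were chosen with earlier results of these data known. For this reason no p is given for the summed small Maf level, although a permutation test had been planned. Named are all 9 genes, up to 4 called genes per list and comparison by lowest adjusted p, and the 5 genes most like Nfe2l2. Bach2, Rela, and the marker genes were named besides, and Bach2 after its values were seen. Slc7a11, at or under 3 counts in each control library, was given no fold. Same-numbered mice of different genotypes were not treated as paired in the main test.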

Additional observations from a re-analysis of the deposited data

How the results depend on the processing

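Over the 54 log2 fold changes of the 9 genes, alternatives other than leaving out a library gave the same direction and side of the threshold 298 times, a lost call 5 times, a gained call 7 times, and a changed sign 5 times. The sign changed with scaling to equal totals, for Nfe2l2 in p65 KO (0.11), for Sqstm1 and Cul3 in DKO against p65 KO (-0.066 and -0.24), and for Nfe2l1 and Cul3 in the interaction (-0.20 and -0.21), none of which was called. In p65 KO, 1 gene was called in place of 2 with scaling to equal totals, with a log2 fold change of at least 1, and with the replicate block. Over all genes these settings called 1987, 899, and 1178, in place of 2032. The correlation of deviations from the genotype mean was between -0.232 and 0.113 over 13 pairs of mice of the same number. In a genotype with 2 mice the deviations mirror each other, so these values cannot settle whether the numbers pair the mice. With the replicate block 2 genes were called in DKO against p65 KO. In DKO against p65 KO, 5 genes were called with scaling to equal totals and 1 with only the genotypes compared. Over all genes, 1753 and 116 were called there, in place of 561. In the interaction, 2 were called with DESeq2, 1 with scaling to equal totals, and 1 without the filter. Over all genes these settings called 400, 140, and 143, in place of 64. Scaling to equal totals shifted every gene by 0.18 in log2 in p65 KO against control. The shift was -0.27 in DKO against p65 KO and in the interaction. The causes of the changes in calls were not tested.

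Leaving out 1 library gave between 0 and 1 calls in Nrf2 KO, 0 and 3 in p65 KO, 1 and 1 in DKO, and 0 and 3 in DKO against p65 KO, where 0 were called without p65 KO replicate 1. The log2 fold change then crossed 0 in Nrf2 KO for Keap1 (-0.012 to 0.025), Maff (-0.12 to 0.55), Bach1 (-0.36 to 0.23), and Cul3 (-0.072 to 0.022), in p65 KO for Nfe2l2 (-0.12 to 0.0035) and Mafg (-0.0082 to 0.32), and in DKO for Keap1 (-0.18 to 0.026). Against Nrf2 KO, DKO ranged from -0.18 to 0.014 for Keap1, -0.18 to 0.030 for Nfe2l1, and -0.56 to 0.033 for Bach1, and against p65 KO from -0.20 to 0.0017 for Keap1. The interaction ranged from -0.29 to 0.014 for Nfe2l2, -0.16 to 0.17 for Mafg, and -0.75 to 0.13 for Mafk. The log2 difference of the summed small Maf level ranged from -0.55 to -0.35 by Nrf2 status and from -0.12 to 0.22 by p65 status. In Nrf2 KO and p65 KO these fits keep 1 library where one of that genotype is left out, and it is assumed to vary like the other groups. The number called over all genes changed as well, as in p65 KO to 858 without control replicate 1, in place of 2032.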
